A study of Mus with 12 samples.

Results

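The genes described here are the carriers, water channel and endocytic receptors with which the proximal tubule of the kidney takes back what the glomerulus has filtered. They are 34 genes of the 19505 measured, taken from a list of named transporters and receptors that was drawn up with earlier results of these data known, and every one had a probe set on the array. The list holds 4 sugar carriers, 7 carriers of phosphate, sulfate and related anions, 11 carriers of amino acids and peptides, 5 carriers of mono- and dicarboxylates and vitamin C, 3 genes of sodium, bicarbonate and water transport, and the 4 genes of the megalin and cubilin receptor system.

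Total RNA of whole mouse kidney was measured on Clariom S arrays, 12 arrays in 4 groups of 3, all from male mice aged 6 months on the C57Bl/6j background. WT control mice were wild type animals bought from a supplier and given saline, and WT AKI mice were such animals given cisplatin at 15 mg/kg, with kidneys taken at day 3. KO control and KO AKI mice were homozygous for a disrupted Apobec1 gene, came from a colony raised in house and backcrossed to C57Bl/6j, and received saline or the same dose of cisplatin. Cisplatin is a platinum drug that injures the kidney, AKI stands for acute kidney injury, and Apobec1 encodes a cytidine deaminase that edits RNA. Because WT and KO mice came from different colonies, genotype and colony cannot be told apart.

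Reabsorption in the proximal tubule is driven by the sodium gradient that the basolateral sodium pump maintains. Carriers of the brush border use this gradient to bring glucose, phosphate, sulfate, amino acids and carboxylates into the cell, and other carriers on the basolateral side let them out to the blood. Filtered proteins and the vitamins bound to them are taken up instead by megalin and cubilin, giant receptors that cycle between the brush border and endosomes. Loss of these functions is known clinically as wasting of glucose, phosphate, amino acids and low molecular weight protein in the urine.

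Values are the deposited log2 signals, on which a difference of 1 is a doubling of linear signal. Background was set on each array at the 95th percentile of 23 probe sets that match no mouse transcript, and lay between 6.15 and 6.52. On all 12 arrays 32 of the 34 members lay above it, and on the 6 control arrays 33 did, so the transporters that define proximal tubule were present in the tissue as labelled. The exceptions were Slc34a3, which lay below background on every AKI array, and Slc26a6, which lay near background throughout. No member reached the top of the scale.

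Array medians lay between 5.79 and 6.00, and between 44.3% and 47% of genes lay above background. The Apobec1 probe set gave 6.63 to 7.33 and 7.50 to 7.66 on the control arrays of WT and KO, and 8.38 to 8.97 and 7.33 to 9.75 on their AKI arrays, so its signal was not lower on the arrays labelled KO. The place of this probe set relative to the disruption is not given in the sources used here, so it does not check the genotype, and KO and WT below mean the labels. Within KO control and the WT groups, arrays correlated over all genes with r between 0.99 and 0.993, and within KO AKI with r between 0.962 and 0.986. KO AKI replicate 2 was the array that stood apart, and results that rest on it are given with and without it.

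The plot of all members by array shows the general pattern. In the 6 control arrays the members stayed close to their WT control means, with a median over the 34 members between -0.09 and 0.09 on each array. On the WT AKI arrays this median was -0.47, -0.29 and -0.29. On the KO AKI arrays it was -0.61, -2.89 and -0.85. Each AKI array thus lay below every control array in this summary, and KO AKI replicate 2 lay far below the other AKI arrays, whereas the medians over all genes on the same arrays lay between 0.03 and 0.07. In RNA of whole kidney, fewer proximal tubule cells and less RNA per cell cannot be told apart.

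**Figure D1:**
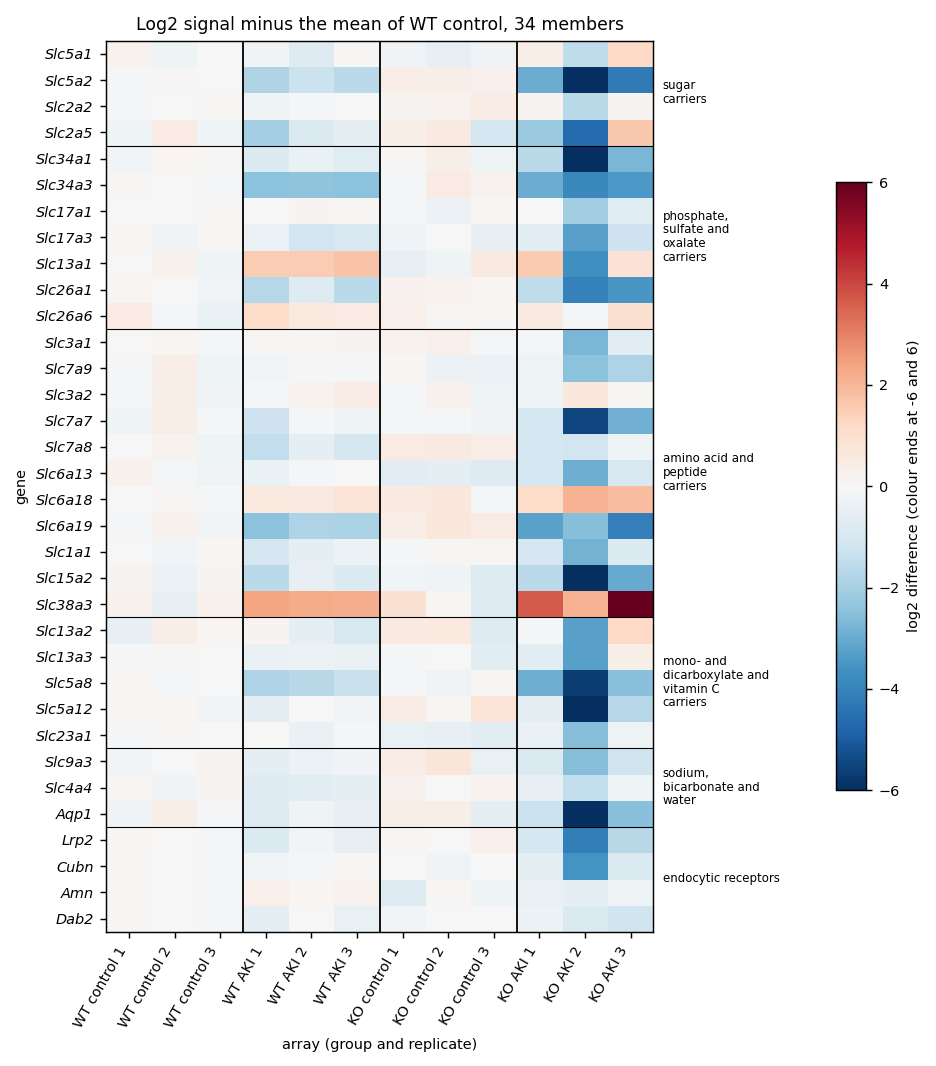
Log2 signal of each of the 34 members (rows, grouped by role) on each of the 12 arrays (columns, grouped by genotype and treatment), shown as the difference from the member's mean over the WT control arrays. Blue stands for lower and red for higher signal. Blue shades on the KO AKI replicate 2 array run through most rows, where the median member lay at -2.89, while Slc38a3 and Slc6a18 were above their WT control means on all 6 AKI arrays.

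After cisplatin in wild type mice, 3 of the 34 members fell and 0 rose at a Benjamini-Hochberg adjusted p under 0.05 in limma. The members that fell were Slc34a3, a phosphate carrier, Slc6a19, the main brush border carrier of neutral amino acids, and Slc7a8, a basolateral amino acid exchanger subunit. Of all genes 14% were called in this comparison, 8.63% up and 5.34% down, and the share of members called, all of them down, was 8.82%. This lay below the share of all genes called in either direction and above the share called down. The reading depended on the fit, since the members' share exceeded that of all genes with array weights (32.4% against 22%), in a fit of the 2 groups only (41.2% against 20.3%) and by the methods' t-test (20.6% against 6.51%). In direction 26 members lay below 0, as did 45.9% of all genes, and the median member difference was -0.38 on the log2 scale, against 0.06 for all genes. In WT AKI 16 members lay below all WT control arrays without overlap, and 4 lay above them (Slc13a1, Slc6a18, Slc38a3 and Amn). Over all genes 17.5% lay without overlap below and 22.2% above.

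After cisplatin in KO mice, 21 of the 34 members were called, of which 19 fell and 2 rose. Of all genes 27.9% were called, 15.4% up and 12.6% down, against 61.8% of the members called and 55.9% of them down. Below 0 lay 29 members, against 46% of all genes, and the median member difference was -1.32, against 0.06 over all genes. In KO AKI 21 members lay wholly below and 2 wholly above the KO control arrays, where 18.6% and 22.8% of all genes did so. The members that rose were Slc38a3, a glutamine carrier, and Slc6a18, a carrier of neutral amino acids. In a fit of the KO groups only, 10 members were called (29.4%, against 18.5% of all genes), and the like fit in WT called 14. Aqp1, Cubn, Dab2, Slc15a2, Slc17a3, Slc1a1, Slc34a1, Slc4a4, Slc5a12, Slc7a7 and Slc7a9 lost their calls in the KO fit. The methods' t-test called only Slc34a3 and Slc6a19 (5.88%, against 3.39% of all genes). At p under 0.01 and fold over 2 it called 3 members (8.82% against 6.39%).

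KO AKI replicate 2 entered these counts in several ways. It was the lowest of the 12 arrays for 26 of the 34 members, as it was for 17.2% of all genes, and the lowest of the 3 KO AKI arrays for 30 members, as for 35% of all genes. The KO AKI group had the largest SD of the 4 groups for 32 members, against 42.1% of all genes, and the median SD of the members was 1.35 in KO AKI, against 0.168 and 0.264 in the WT control and WT AKI groups and 0.204 in KO control. In KO AKI 24 members had an SD over 1, and in the other groups 0 had. The model used a single residual spread for the 4 groups, so the KO AKI spread also entered the tests of the WT arrays. The narrower spread of the other groups likewise entered the tests of KO AKI, so SEs and adjusted p-values there can be too small. In a fit of the KO groups only, 10 members were called in KO AKI, not 21. Without KO AKI replicate 2, 12 members were called in WT AKI against WT control, 3 up and 9 down, where 20.7% of all genes were called. The 9 members gained were Slc5a2, Slc17a3, Slc26a1, Slc1a1, Slc5a8 and Slc4a4, all lower in WT AKI, and Slc13a1, Slc26a6 and Slc38a3, all higher. In KO AKI against KO control 19 members were called without the array, 4 up and 15 down, of which 17 were among the 21, against 22.9% of all genes. There Slc17a3, Slc7a9, Slc4a4 and Dab2 lost their calls, Slc5a1 and Slc13a1 were called higher, and the median member difference was -0.66. The fitted sign in KO turned for 5 members, Slc13a1, Slc3a2, Slc13a2, Slc13a3 and Slc23a1, of which only Slc13a1 was then called. When KO AKI replicate 3 was left out, the count in WT AKI against WT control was 5, with Slc38a3 and Slc5a8 added, where 14.4% of all genes were called.

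**Figure D2:**
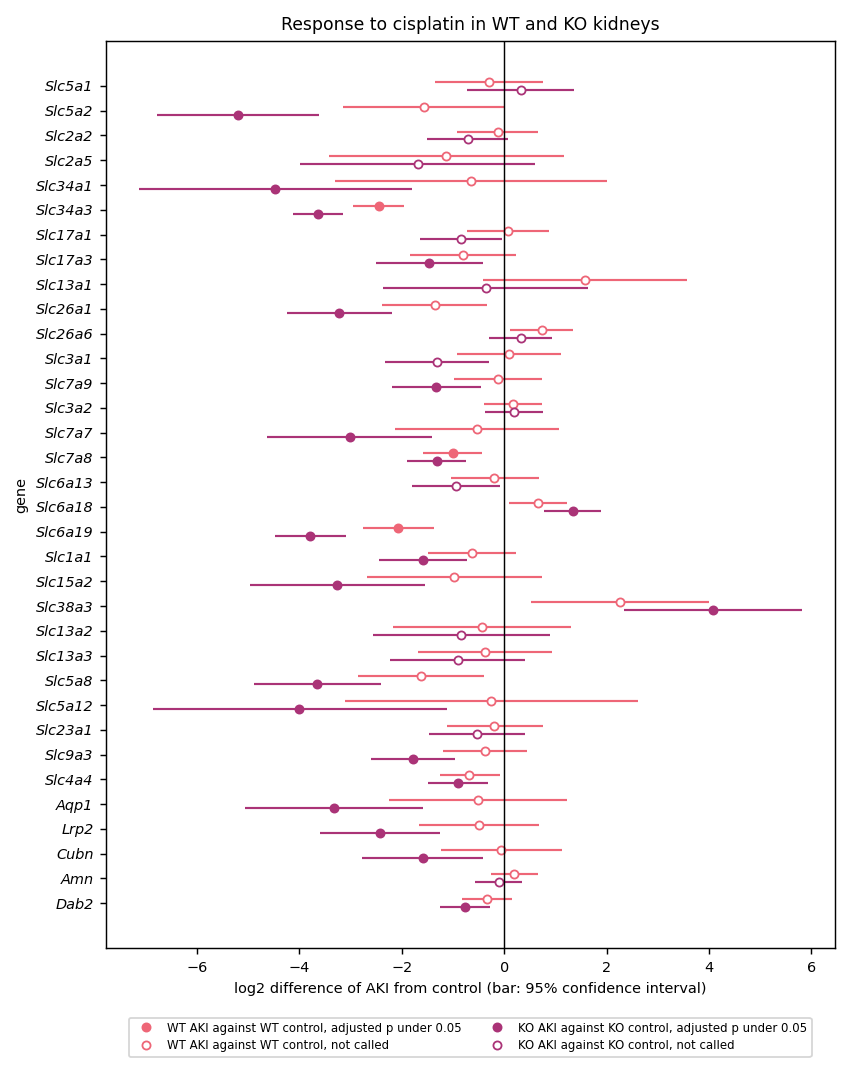
Fitted log2 difference of AKI from control (x axis, points, with 95% confidence intervals as bars) for each of the 34 members (rows), in WT and in KO mice, with filled points for an adjusted p under 0.05. Below 0 lie 29 members in KO and 26 in WT, and Slc5a2, Slc34a1 and Slc5a12 lie farthest below 0 in KO, the last 2 with wide intervals.

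Of the 4 sugar carriers, 1 fell in KO AKI and none was called in WT AKI. Slc5a2 encodes SGLT2, the high capacity sodium-glucose cotransporter of the early proximal tubule. Its log2 signal was 14.73, 14.88 and 14.84 in WT control and 13.00, 13.52 and 13.21 in WT AKI. In KO control it was 15.20, 15.19 and 15.07, and in KO AKI 11.85, 7.44 and 10.58. All AKI arrays lay below all control arrays, and the KO AKI arrays lay below the WT AKI arrays. Slc5a2 fell by 5.20 in KO AKI (SE 0.73, adjusted p 0.000246), a 36.8-fold lower signal, fell by 3.94 without KO AKI replicate 2 (adjusted p 5.28e-07) and fell by 6.15 without KO AKI replicate 1. Slc5a2 differed by -1.57 in WT AKI (adjusted p 0.168). Leaving out KO AKI replicate 2 lowered this adjusted p to 0.00101.

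Slc5a1 encodes SGLT1, the high affinity cotransporter that recovers what is left of the glucose farther down the tubule. It gave 11.02, 10.56 and 10.86 in WT control and 10.59, 10.04 and 10.90 after cisplatin, and in KO mice 10.59, 10.32 and 10.58 in control and 11.15, 9.30 and 12 after cisplatin. The groups overlapped in each genotype, and KO AKI held both the highest and the lowest array. Slc5a1 was, without KO AKI replicate 2, higher in KO AKI than in KO control by 1.08 (adjusted p 0.0153). Slc2a2 encodes GLUT2, the basolateral exit path of glucose, and had means of 16.90 ± 0.08, 16.76 ± 0.17, 17.18 ± 0.16 and 16.47 ± 1.04 (SD, 3 arrays) in the saline and cisplatin groups of WT and then of KO mice, with no call. The fructose carrier gene Slc2a5 ranged from 10.73 to 12.32 over the control arrays, from 9.78 to 11.24 in WT AKI and from 7.17 to 13.41 in KO AKI, where it had both its lowest and its highest array. With all arrays it was not called, without KO AKI replicate 3 it was lower in KO AKI by a log2 difference of -3.38 (adjusted p 0.00294), and in a fit of the WT groups only the difference was -1.13 (adjusted p 0.0467).

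The 7 anion carriers included 4 that fell in KO AKI and 1 that fell in WT AKI. Slc34a1 encodes NaPi-IIa, the main sodium-phosphate cotransporter of the mouse brush border. It gave 18.00, 18.29 and 18.27 in WT control and 17.38, 17.77 and 17.45 in WT AKI. In the KO groups it gave 18.25, 18.52 and 17.93 in control and 16.56, 9.31 and 15.43 in AKI. Every AKI array lay below every control array, and KO AKI replicate 2 lay over 6 log2 units below the next array. The fitted difference in KO was -4.47 (SE 1.24, adjusted p 0.0165). It was -2.24 without KO AKI replicate 2 (adjusted p 8.5e-05), and -5.86 or -5.30 when replicate 1 or 3 of that group was left out. Without KO control replicate 2 the adjusted p was 0.0514, and in a fit of the KO groups only it was 0.0825. In WT the difference was not called with all arrays. In a fit of the WT groups only it was -0.65 (adjusted p 0.0383).

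Slc34a3 encodes NaPi-IIc, the other sodium-phosphate cotransporter of this segment. Its signal was 7.54, 7.49 and 7.36 in WT control and 4.99, 5.03 and 5.01 in WT AKI. It was 7.37, 7.96 and 7.69 in KO control and 4.49, 3.59 and 4.04 in KO AKI. All control arrays lay above background and all AKI arrays lay below it. Read against the background of the AKI arrays, Slc34a3 was at least 2.15-fold lower in WT AKI and at least 2.43-fold lower in KO AKI, with adjusted p 3.06e-05 and 4.15e-07. It kept its call in every fit without 1 array in each genotype, with an adjusted p of at most 0.000414 in WT and 7.99e-06 in KO.

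Slc26a1 encodes SAT1, the basolateral exchanger of sulfate and oxalate. It gave 11.47, 11.38 and 11.17 in WT control and 9.61, 10.58 and 9.74 after cisplatin, and in KO mice 11.58, 11.53 and 11.48 in control and 9.82, 7.29 and 7.84 after cisplatin. The AKI arrays of each genotype lay below all controls. Slc26a1 fell by 3.22 in KO AKI (SE 0.48, adjusted p 0.000353) and by a difference of -3.97 without KO AKI replicate 1, and its difference in WT AKI was -1.36 (adjusted p 0.0736). Slc17a3, an organic anion carrier gene, fell by 1.46 in KO AKI (adjusted p 0.0381). That call was lost without any 1 of 6 arrays, namely WT control replicates 1 and 3, the KO control arrays and KO AKI replicate 2, with an adjusted p of up to 0.107, and without KO AKI replicate 2 the difference was -0.69.

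Slc13a1 stood higher in WT AKI, unlike most of the list. It encodes NaS1, the brush border sodium-sulfate cotransporter. The signal was 18.07, 18.30 and 17.78 in WT control and 19.57, 19.57 and 19.75 in WT AKI. In KO control it was 17.54, 17.79 and 18.61, and in KO AKI 19.61, 14.35 and 18.90. All arrays of AKI other than KO AKI replicate 2 lay above all control arrays, and that array lay below them all. The difference in WT was 1.58 (SE 0.93, adjusted p 0.276), and without KO AKI replicate 2 it had an adjusted p of 0.00117. In KO the difference was -0.36 with all arrays, not called, and 1.27 without KO AKI replicate 2 (adjusted p 0.00774), so that array turned its sign. Slc17a1 lay between 15.77 and 16.28 on every array except KO AKI replicates 2 and 3, at 14.00 and 15.36, and it was called lower in KO AKI only without KO AKI replicate 1 (-1.30, adjusted p 0.00764). Slc26a6, a chloride and oxalate exchanger gene, ranged from 5.91 to 7.40, near background. It was not called in the fit of all arrays with equal weights, and with array weights it differed by 0.74 in WT AKI (adjusted p 0.0459).

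Of the 11 amino acid and peptide carriers, 6 fell and 2 rose in KO AKI, and 2 fell in WT AKI. Slc6a19 encodes B0AT1, the main route for neutral amino acids across the brush border. Its signal was 13.74, 14.07 and 13.67 in WT control and 11.36, 11.98 and 11.92 in WT AKI. In KO control it was 14.21, 14.49 and 14.31, and in KO AKI 10.63, 11.29 and 9.72. No AKI array reached any control array, and the KO AKI arrays lay below the WT AKI arrays. Here KO AKI replicate 2 was the highest of its group. Slc6a19 fell by 2.07 in WT AKI (SE 0.32, adjusted p 0.00136) and fell by 3.79 in KO AKI (SE 0.32, adjusted p 4.25e-06).

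Slc6a18 encodes B0AT3, a related carrier of neutral amino acids that in the mouse is found in the later proximal tubule. It gave 14.64, 14.70 and 14.55 in WT control and 15.23, 15.17 and 15.47 in WT AKI. In KO control it gave 15.15, 15.26 and 14.53, and in KO AKI 15.75, 16.70 and 16.50. The direction was thus opposite to that of Slc6a19, with the KO AKI arrays the highest of all and KO AKI replicate 2 the highest array. Slc6a18 rose by 1.34 in KO AKI (SE 0.26, adjusted p 0.00213). In WT AKI the arrays did not overlap with the controls, and the difference was 0.66 (adjusted p 0.105).

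Slc38a3 was the member with the largest rise in KO AKI. It encodes SNAT3, a basolateral glutamine carrier that feeds the making of ammonia in the proximal tubule. The signal was 8.65, 7.91 and 8.68 in WT control and 10.77, 10.65 and 10.61 in WT AKI. It was 9.32, 8.52 and 7.63 in KO control and 12.10, 10.51 and 15.11 in KO AKI. The AKI arrays lay above all control arrays, and the KO AKI arrays were spread over more than 4 log2 units. Slc38a3 rose by 4.08 in KO AKI (SE 0.80, adjusted p 0.00241), a 16.9-fold higher signal. The rise was 5.11 without KO AKI replicate 2. It was 2.81 (adjusted p 0.00165) when replicate 3 of that group, the array at 15.11, was left out. In WT AKI it differed by 2.26 (SE 0.80, adjusted p 0.0772), and without KO AKI replicate 2 the adjusted p was 0.0114.

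Basolateral exchangers of amino acids pair the heavy subunit 4F2hc, encoded by Slc3a2, with a light subunit. Slc3a2 gave 15.56, 16.06 and 15.47 in WT control and 15.58, 15.89 and 16.12 after cisplatin, and in KO mice 15.58, 15.97 and 15.41 in control and 15.44, 16.33 and 15.78 after cisplatin. These groups overlapped, and KO AKI replicate 2 held the highest of the 12 values. Slc7a7, the light subunit y+LAT1, gave 13.29, 13.86 and 13.43 in WT control and 12.29, 13.41 and 13.29 after cisplatin, and in KO mice 13.47, 13.42 and 13.31 in control and 12.48, 8.03 and 10.63 after cisplatin. It fell by 3.02 in KO AKI (SE 0.75, adjusted p 0.0094), fell by 1.84 without KO AKI replicate 2 (adjusted p 0.00667) and fell by 4.07 without KO AKI replicate 1, while the WT groups overlapped. The call of Slc7a7 was lost in a fit of the KO groups only (adjusted p 0.0536).

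Slc7a8, the light subunit LAT2, was measured at 13.84, 14.02 and 13.57 in WT control and 12.34, 13.28 and 12.78 after cisplatin, and in KO mice 14.32, 14.34 and 14.20 in control and 12.75, 12.67 and 13.49 after cisplatin. The AKI arrays lay below all controls, and KO AKI replicate 2 did not stand apart. Slc7a8 fell by 1.01 in WT AKI (SE 0.27, adjusted p 0.025) and fell by 1.32 in KO AKI (SE 0.27, adjusted p 0.00295). The call in WT was lost without WT control replicate 1 or 2 or WT AKI replicate 1 or 3, with an adjusted p of up to 0.106, after quantile normalization (-0.85, adjusted p 0.0543) and by the methods' t-test (adjusted p 0.127), which called Slc7a8 in neither genotype.

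The brush border carrier of cystine and basic amino acids joins rBAT, encoded by Slc3a1, to the light subunit encoded by Slc7a9. Inherited loss of either causes cystinuria. Slc3a1 gave 16.83, 16.96 and 16.73 in WT control and 16.90, 16.90 and 16.99 after cisplatin, and in KO mice 17.07, 17.16 and 16.76 in control and 16.75, 14.12 and 16.20 after cisplatin. Slc7a9 gave 9.72, 10.20 and 9.54 in WT control and 9.67, 9.69 and 9.73 after cisplatin, and in KO mice 9.93, 9.47 and 9.46 in control and 9.52, 7.38 and 7.98 after cisplatin. The WT groups overlapped for these subunits, and KO AKI replicate 2 was the lowest array for each. Slc7a9 fell by 1.33 in KO AKI (SE 0.40, adjusted p 0.0253), a call that was lost without any of the KO control arrays, KO AKI replicate 2 or KO AKI replicate 3, with an adjusted p of up to 0.0918, and without KO AKI replicate 1 the difference was -1.94. For Slc3a1 the difference in KO was -1.31 (adjusted p 0.052). It was called with array weights (-0.93, adjusted p 0.0418), after quantile normalization (adjusted p 0.0473), after median centring (-1.43, adjusted p 0.0328), with the filter on dim genes (adjusted p 0.0489) and with a trend of the prior variance (adjusted p 0.0488).

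Slc15a2 encodes PEPT2, the high affinity carrier of di- and tripeptides. Its signal was 13.04, 12.51 and 13.01 in WT control and 11.25, 12.38 and 12.01 after cisplatin, and in KO mice 12.69, 12.64 and 12.10 in control and 11.25, 6.61 and 9.81 after cisplatin. KO AKI lay wholly below KO control, and replicate 2 was near background. Slc15a2 fell by 3.26 in KO AKI (SE 0.79, adjusted p 0.00847), fell by 1.95 without KO AKI replicate 2 and fell by 4.27 without KO AKI replicate 1. Slc1a1, the gene of the glutamate and aspartate carrier EAAT3, fell by 1.59 in KO AKI (SE 0.40, adjusted p 0.01) and fell by 0.95 without KO AKI replicate 2 (adjusted p 0.00699). In a fit of the KO groups only, Slc15a2 and Slc1a1 lost their calls (adjusted p 0.0521 and 0.0541). In a fit of the WT groups only, Slc15a2 was lower in WT AKI (-0.98, adjusted p 0.0368). Slc6a13, a GABA and taurine carrier gene, ranged from 11.37 to 12.44 over the control and WT AKI arrays and gave 11.12, 9.24 and 11.22 in KO AKI. It was not called with all arrays, and was called lower in KO AKI without KO AKI replicate 1 or 3 (adjusted p 0.0375 and 0.0349).

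Among the 5 carriers of carboxylates and vitamin C, the lactate carriers Slc5a8 and Slc5a12 fell in KO AKI. Slc5a8 encodes SMCT1, a sodium-coupled carrier of lactate and other monocarboxylates. It gave 16.19, 16 and 16.03 in WT control and 14.20, 14.40 and 14.74 in WT AKI. In KO control it gave 16.02, 15.86 and 16.14, and in KO AKI 13.15, 10.37 and 13.56. All AKI arrays lay below all control arrays, and KO AKI lay below WT AKI. Slc5a8 fell by 3.65 in KO AKI (SE 0.57, adjusted p 0.00053), fell by 2.65 without KO AKI replicate 2 (adjusted p 1.51e-06) and fell by 4.24 without KO AKI replicate 3. In WT AKI the difference was -1.63 (adjusted p 0.0752), with an adjusted p of 8.54e-05 once KO AKI replicate 2 was left out.

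Slc5a12 encodes SMCT2, the low affinity lactate carrier of the early proximal tubule. The signal was 17.13, 17.16 and 16.88 in WT control and 16.47, 17.08 and 16.87 after cisplatin, and in KO mice 17.48, 17.12 and 17.90 in control and 16.47, 8.70 and 15.35 after cisplatin. The WT groups overlapped, and KO AKI replicate 2 lay over 6 log2 units below any other array. The difference in KO was -4.00 (SE 1.33, adjusted p 0.0389). It was lost without any of the 6 WT arrays or the 3 KO control arrays, with an adjusted p of up to 0.105, and without KO AKI replicate 2 the difference was -1.59 (adjusted p 0.00221). Without KO AKI replicate 1 or 3 it was -5.48 or -4.92. The other 3 genes, the dicarboxylate carriers Slc13a2 and Slc13a3 and the vitamin C carrier Slc23a1, were not called with all arrays, and each was lowest on KO AKI replicate 2, at 6.59, 10.10 and 13.01. Their differences in KO were -0.84, -0.91 and -0.54, and 0.43, 0.11 and 0.20 without that array, with no call. Slc13a3 was called lower without KO AKI replicate 3 (-1.68, adjusted p 0.033).

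The 3 genes of sodium, bicarbonate and water transport all fell in KO AKI and none was called in WT AKI. Aqp1 encodes aquaporin-1, the water channel of the proximal tubule and descending thin limb. It gave 15.17, 15.75 and 15.28 in WT control and 14.63, 15.16 and 14.90 after cisplatin, and in KO mice 15.73, 15.77 and 14.88 in control and 14.10, 9.38 and 12.89 after cisplatin. The KO AKI arrays were the lowest of all, and replicate 2 the lowest among them. Aqp1 fell by 3.33 in KO AKI (SE 0.81, adjusted p 0.00819), fell by 1.96 without that array (adjusted p 0.000989) and fell by 4.32 without KO AKI replicate 1. Its call was lost in a fit of the KO groups only (adjusted p 0.0549).

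Slc9a3 encodes NHE3, the sodium-proton exchanger that carries much of the sodium and bicarbonate recovery of this segment. The values were 12.35, 12.56 and 12.70 in WT control and 12, 12.17 and 12.32 after cisplatin, and in KO mice 13.00, 13.24 and 12.10 in control and 11.69, 9.97 and 11.32 after cisplatin. KO AKI lay below all other arrays. Slc9a3 fell by 1.79 in KO AKI (SE 0.38, adjusted p 0.00387). Slc4a4, the gene of the basolateral sodium-bicarbonate cotransporter NBCe1, gave 17.62, 17.35 and 17.71 in WT control and 16.78, 16.90 and 16.98 after cisplatin, and in KO mice 17.84, 17.53 and 17.79 in control and 17.09, 16.06 and 17.29 after cisplatin. It fell by 0.91 in KO AKI (SE 0.27, adjusted p 0.0242), a call that was lost without KO control replicate 1 or 3 or KO AKI replicate 2, with an adjusted p of up to 0.0787.

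Of the 4 endocytic receptor genes, Lrp2, Cubn and Dab2 fell in KO AKI, and none was called in WT AKI. Lrp2 encodes megalin, the large scavenger receptor of filtered proteins. Its signal was 17.70, 17.61 and 17.50 in WT control and 16.80, 17.42 and 17.10 after cisplatin, and in KO mice 17.73, 17.58 and 17.93 in control and 16.54, 13.47 and 15.95 after cisplatin. The AKI arrays lay below all controls in each genotype, and the KO AKI arrays below the WT AKI arrays. Lrp2 fell by 2.43 in KO AKI (SE 0.55, adjusted p 0.0053), a 5.38-fold lower signal, fell by 1.5 without KO AKI replicate 2 (adjusted p 0.000451) and fell by 3.04 without KO AKI replicate 1.

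Cubn encodes cubilin, which has no transmembrane part and is carried to the surface by amnionless, the product of Amn. Cubn gave 16.78, 16.74 and 16.56 in WT control and 16.55, 16.60 and 16.75 after cisplatin, and in KO mice 16.67, 16.47 and 16.71 in control and 16.15, 13.11 and 15.82 after cisplatin. The WT groups overlapped, and KO AKI lay below all other arrays. Cubn fell by 1.59 in KO AKI (SE 0.55, adjusted p 0.0448). The call was lost without any of the 6 WT arrays or the 3 KO control arrays, with an adjusted p of up to 0.109, and without KO AKI replicate 2 the difference was -0.63 (adjusted p 0.0363). Amn gave 8.55, 8.53 and 8.41 in WT control and 8.78, 8.60 and 8.71 after cisplatin, and in KO mice 7.72, 8.56 and 8.24 in control and 8.05, 7.93 and 8.21 after cisplatin. KO AKI replicate 2 did not stand apart for Amn, which was not called.

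Dab2 encodes an adaptor that binds the tail of megalin and links it to clathrin. It gave 17.39, 17.30 and 17.23 in WT control and 16.74, 17.31 and 16.85 after cisplatin, and in KO mice 17.15, 17.30 and 17.34 in control and 16.94, 16.43 and 16.12 after cisplatin. KO AKI lay below KO control, with replicate 3 the lowest. Dab2 fell by 0.76 in KO AKI (SE 0.23, adjusted p 0.023), a call that was lost without KO control replicate 2 or 3 or KO AKI replicate 2 or 3, with an adjusted p of up to 0.0898.

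**Figure D3:**
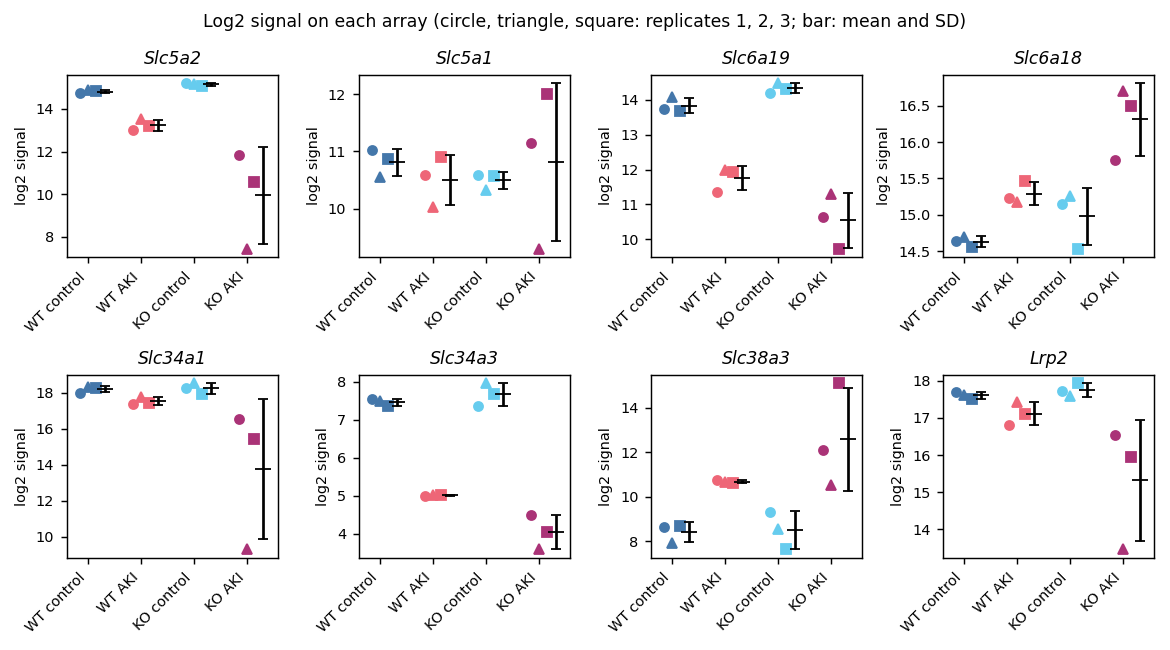
Log2 signal (y axis, a scale of its own in each panel) of 8 members on each of the 12 arrays by group, with replicates 1, 2 and 3 as circle, triangle and square and the group mean with its SD beside them. Slc5a2, Slc6a19, Slc34a1, Slc34a3 and Lrp2 lie lower in AKI in each genotype, Slc38a3 and Slc6a18 lie higher, and the lowest KO AKI point of Slc5a2, Slc34a1 and Lrp2 is replicate 2.

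The comparison of KO AKI with WT AKI asks whether the transporters stood lower in injured kidneys without Apobec1. In limma 0 of 34 members were called, where 0.487% of all genes were, and 22 members had an unadjusted p under 0.05, as did 15.3% of all genes. In direction 30 members lay below 0 and 4 above (51.2% of all genes lay below 0), with a median of -1.0 against -0.01 for all genes. In KO AKI 14 members lay wholly below WT AKI and 1, Slc6a18, wholly above, where 8.76% and 8.42% of all genes did. Slc5a2 had the smallest adjusted p, with a difference of -3.29 (95% interval -4.86 to -1.71, adjusted p 0.0595), followed by Slc34a3, which lay below background in each of these groups. The methods' t-test called 0 members after Benjamini-Hochberg adjustment.

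These counts turned on single KO AKI arrays. Without KO AKI replicate 2 the members called lower in KO AKI than in WT AKI were 4, where 0.62% of all genes were called. They were Slc5a2 (-2.03, adjusted p 0.00677), Slc6a19 (-1.58, adjusted p 0.0238), Slc34a1 (-1.54, adjusted p 0.034) and Slc5a8 (-1.09, adjusted p 0.0449), and the median over the 34 members was then -0.46. Without KO AKI replicate 1, the KO AKI array nearest to the controls in the members' median, 17 members were called, 50% of them, where 6.02% of all genes were called. Among them were Slc5a2, Slc7a7, Slc26a1 and Lrp2 lower and Slc6a18 higher.

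Whether cisplatin changed the members more in KO than in WT mice was tested by the interaction term of the model. Again 0 members were called, where 0.0308% of all genes were, and 10 had an unadjusted p under 0.05, against 10.4% of all genes. The interaction lay below 0 for 30 members, as for 50.5% of all genes, with a median of -0.94. For Slc5a2 it was -3.63 (95% interval -5.85 to -1.40), and for Slc6a19 -1.71 (95% interval -2.69 to -0.74). Without KO AKI replicate 2 these same genes were called, Slc5a2 at -2.37 (adjusted p 0.0304) and Slc6a19 at -2.08 (adjusted p 0.0358), where 0.226% of all genes were called. Without KO AKI replicate 1 the calls were Slc26a1, Slc34a3, Slc5a2, Slc7a7 and Slc7a9, where 1.73% of all genes were called.

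Between the saline groups of the 2 genotypes no member was called. This was 0 of 34 members in KO control against WT control, where 0.0513% of all genes were, and 0 had an unadjusted p under 0.05, as 6.17% of all genes had. Fitted differences ran from -0.69 to 0.51 with a median of 0.04. Without overlap 5 members lay above and 2 below the WT control arrays, where 7.25% and 7.37% of all genes did. With 3 arrays against 3 an exact permutation test of a single gene cannot go below p = 0.1, so none was run.

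**Figure D4:**
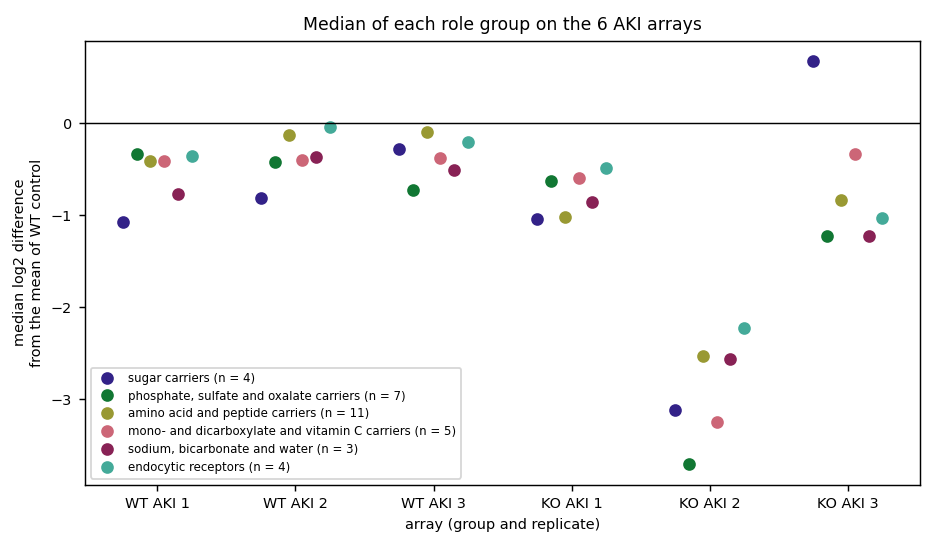
Median difference of the members of each role group from their WT control means (y axis, log2) on each of the 6 AKI arrays (x axis), with 1 point for each role group. KO AKI replicate 2 is the lowest array for all 6 role groups, from -2.23 for the endocytic receptors to -3.71 for the phosphate, sulfate and oxalate carriers.

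In every role group KO AKI replicate 2 was the lowest array. In KO AKI replicate 1 the medians ran from -1.04 for the sugar carriers to -0.49 for the endocytic receptors, and in replicate 3 from -1.23 for the phosphate, sulfate and oxalate carriers to 0.68 for the sugar carriers. The last was the only positive median among the AKI arrays, with Slc5a1 at 12 and Slc2a5 at 13.41 on that array.

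Members that work as pairs did not always move together. For 8 pairs, picked after the values were seen, the difference of the log2 signals on each array is given as a description, with no test. Slc5a2 changed relative to Slc5a1 by -1.27 in WT and -5.52 in KO, a mean of -3.40. Slc6a19 changed relative to Slc6a18 by -2.73 in WT and -5.12 in KO, a mean of -3.93. In each of these pairs the first named stood lower relative to the second on all 6 AKI arrays than in its controls.

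For the light subunits of the basolateral side, the mean change relative to Slc3a2 was -1.96 for Slc7a7 and -1.35 for Slc7a8, and each was lower on all 6 AKI arrays. For Slc7a7 the change was -0.70 in WT and -3.21 in KO, and for Slc7a8 -1.18 and -1.51. For the brush border pair, Slc7a9 changed relative to Slc3a1 by -0.12 and was lower on 4 of 6 AKI arrays. Among the receptors, Cubn, Amn and Dab2 changed relative to Lrp2 by a mean of 0.64, 1.51 and 0.91, and each stood higher relative to Lrp2 on all 6 AKI arrays than in its controls. In WT these changes were 0.44, 0.70 and 0.16, and in KO 0.84, 2.32 and 1.66, so that of Dab2 was small in WT. Without 1 array the value for Slc7a7 ran from -2.58 to -1.25 and that for Dab2 from 0.46 to 1.16. The phosphate carriers were not set against each other, since Slc34a3 lay below background on all AKI arrays.

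Genes that partner or regulate these carriers were counted from lists written with earlier results known. Of 12 partners and regulators 7 fell and 0 rose in KO AKI, and 1 fell in WT AKI. Of all genes 12.6% fell and 15.4% rose in KO AKI, and 5.34% fell and 8.63% rose in WT AKI. Kl, the gene of the FGF23 co-receptor klotho, fell by 5.0 (adjusted p 0.00072) and fell by 3.58 without KO AKI replicate 2. The membrane carbonic anhydrase gene Car4 fell by 4.17 (adjusted p 0.000284), and by a difference of -3.30 without that array. Cltrn, the gene of collectrin, which brings B0AT1 to the brush border, fell by 3.32 (adjusted p 0.00137), and by a difference of -2.44 without it. Leaving out KO AKI replicate 1 instead gave -5.99 for Kl, -5.00 for Car4 and -4.27 for Cltrn. Car14, a carbonic anhydrase gene, was the one called in WT AKI, where it fell by 2.29 (adjusted p 0.00627). Car4 was also called lower in KO AKI than in WT AKI, with a difference of -3.64 (adjusted p 0.0206), a call lost without KO AKI replicate 3 (adjusted p 0.0603). With KO AKI replicate 2 left out, 7 of these 12 genes fell in KO AKI and 5 in WT AKI, where 22.9% and 20.7% of all genes were called.

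Of 32 other solute carriers of the proximal tubule 12 fell and 7 rose in KO AKI, and 1 fell and 3 rose in WT AKI. Of all genes 27.9% were called in KO AKI and 14% in WT AKI. With KO AKI replicate 2 left out, 8 fell and 7 rose in KO AKI, and 6 fell and 4 rose in WT AKI, where 22.9% and 20.7% of all genes were called. The largest fall was that of Slc7a13, a cystine and aspartate carrier gene of the late segment that pairs with rBAT, which gave 14.79, 6.41 and 9.92 in KO AKI and fell by 7.94 (adjusted p 0.00083). It fell by 5.96 without KO AKI replicate 2 (adjusted p 0.000175), and without KO AKI replicate 1 the difference was -10.15. Phosphate carrier genes outside the list moved the other way from Slc34a1. Slc34a2, known mainly from lung and gut, lay below background on all control arrays and above it on all AKI arrays, and was at least 1.99-fold higher in WT AKI (adjusted p 0.00769) and at least 4.75-fold higher in KO AKI (adjusted p 0.000167). Slc20a1, a widely expressed phosphate carrier gene, rose by 2.09 in WT AKI (adjusted p 0.00162) and by 3.33 in KO AKI (adjusted p 1.55e-05).

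Of 21 endocytic and lysosomal partners 4 rose and 3 fell in KO AKI, and 1 rose and 1 fell in WT AKI, with a median near 0. Of all genes 15.4% rose and 12.6% fell in KO AKI, and 8.63% rose and 5.34% fell in WT AKI, so this list stood near all genes. Folr1, the folate receptor gene of the brush border, fell by 2.04 in KO AKI (adjusted p 0.000617), Lrpap1, the chaperone of megalin, fell by 1.60 (adjusted p 0.00216), and Scarb2, a lysosomal membrane protein gene, rose by 1.93 (adjusted p 0.000343). Of 11 transcription factors of the proximal tubule 6 fell and 0 rose in KO AKI, among them Maf with a difference of -2.62 (adjusted p 0.00127), Hnf4a with -2.45 (adjusted p 0.0113) and Vdr with -1.41 (adjusted p 0.00581). Without KO AKI replicate 2 the values were -1.89 for Maf and -1.36 for Hnf4a, each still called, and without KO AKI replicate 1 that for Hnf4a was -3.13. In WT AKI 1 fell, Esrrg, with -0.84 (adjusted p 0.0113). With KO AKI replicate 2 left out, 4 of these factors fell in KO AKI and 2 in WT AKI, and the endocytic partners gave 4 up and 3 down in KO AKI. Of all genes 22.9% were then called in KO AKI and 20.7% in WT AKI.

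Genes of other cell types moved in the same comparisons, where 14% of all genes were called in WT AKI and 27.9% in KO AKI. Of 6 distal convoluted tubule markers 6 fell in each genotype, with log2 summed signals of 16.36 to 17.02 over the control arrays, 10.92 to 11.41 in WT AKI and 8.70 to 10.01 in KO AKI. Of 8 thick ascending limb markers 3 fell in WT AKI and 4 in KO AKI (18.73 to 19.29 in controls, 18.81 to 19.16 in WT AKI, 17.83 to 18.77 in KO AKI), and of 12 collecting duct markers 3 and 6 fell (14.18 to 14.77, 12.85 to 13.62 and 12.65 to 14.08). All 6 distal convoluted tubule markers thus fell, while most thick ascending limb markers were not called in WT AKI. The summed signal of the thick ascending limb markers was 19.14 to 19.17 in WT control alone. Their median deviation from the WT control means was -0.82 to -0.46 on the WT AKI arrays, against -0.04 to 0.09 in WT control. For the distal convoluted tubule markers it was -3.95 to -3.29 in WT AKI. With KO AKI replicate 2 left out the counts in WT AKI and KO AKI were 6 and 6, 4 and 4, and 7 and 6 for these 3 lists. Of all genes 20.7% and 22.9% were then called. Of 8 endothelial markers 0 and 5 fell. Their summed signal was 12.57 to 13.42 in WT control and 13.67 to 14.06 in KO control, and 12.45 to 12.76 in WT AKI and 12.44 to 13.02 in KO AKI. The KO controls thus lay above the WT controls (median difference 0.98, no gene called), while KO AKI against WT AKI had a median of 0.04. With KO AKI replicate 2 left out, 1 rose and 2 fell in WT AKI and 4 fell in KO AKI. Of 5 podocyte markers none was called, with the podocyte gene Wt1 above background on no array.

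Of 11 macrophage and neutrophil markers 1 rose in WT AKI and 6 in KO AKI, with summed signals of 10.41 to 11.06 in controls, 10.94 to 11.57 in WT AKI and 11.66 to 12.61 in KO AKI, and Cxcr2 above background on no array. Of all genes 8.63% rose in WT AKI and 15.4% in KO AKI. Leaving out KO AKI replicate 2 gave 4 and 5 rises in this list, where 20.7% and 22.9% of all genes were called in either direction. Of 6 fibroblast and mural markers 1 rose in WT AKI, and 2 rose and 1 fell in KO AKI (12.50 to 13.98 in controls, 13.28 to 13.57 and 13.18 to 13.90 in AKI). Of 6 lymphocyte markers 1 fell in KO AKI, and Cd3e, Cd3g, Cd8a, Cd79a and Nkg7 were above background on no array. Of 4 fat markers 1 fell in WT AKI. All 11 tubule injury genes measured rose in each genotype, with summed signals of 13.21 to 15.57 in controls, 17.69 to 18.57 in WT AKI and 19.59 to 21.03 in KO AKI. Of 9 housekeeping genes 1 rose in WT AKI and 4 in KO AKI. The part of these cell types in the result was not tested.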

How the data were processed

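RNA of 12 kidneys was measured on Clariom S arrays. The deposited values are log2 signals, one value for each probe set on each array, which the authors obtained with Transcriptome Analysis Console per the labels; its version, background correction and normalization are not given in the sources used here, so a shift of whole arrays cannot be traced to its source. The deposited values were used as they stood. Of 22206 non-control probe sets 19572 had 1 gene symbol and 2634 none; for 55 genes with several, the highest mean was taken, which left 19505 genes. Each member had 1 probe set. The number of arrays limits the precision.

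Groups came from the sample labels. The model was fitted with limma 3.58.1 in R 4.3.3, as 4 group means over all 12 arrays (lmFit, then eBayes). Degrees of freedom were 8 for the residuals, and 5.6 came from the prior. Adjustment was by Benjamini-Hochberg over 19505 genes, with a threshold of 0.05. The fit was also run on simulated data. That run is not taken as a check of the fit under the wider spread of KO AKI. The labels do not say that the mice were independent of each other in litter or cage, so p-values measure the spread between these arrays. A gene below background on all arrays of a group is given as a bound (at least), from the other group's mean against the background of the dim group's arrays. Figures were drawn with matplotlib 3.10.9.

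The members and lists were chosen with earlier results of these data known. Array values are given for called members, up to about 3 in each role group by size of difference, for members that moved against the majority and for the defining members of a role; of other lists, up to 3 called genes were named. Alternatives were array weights, quantile normalization, median centring, a filter on dim genes, a trend of the prior variance, a replicate block, fits of 2 groups, the methods' t-test, the study's thresholds (p under 0.01, fold over 2) and leaving out each array. The sources name no genome build, so no positions are given.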

Additional observations from a re-analysis of the deposited data

How the results depend on the processing

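Counts of members called changed with the fit. In WT AKI against WT control the count of 3 became 11 with array weights, 14 in a fit of the 2 groups only, 7 by the methods' t-test and 6 by that t-test at p under 0.01 and fold over 2, where 22%, 20.3%, 6.51% and 6% of all genes were called, and 2 to 12 without 1 array. In KO AKI against KO control the count of 21 became 10 in a fit of the 2 groups only, 2 by the methods' t-test (Slc34a3 and Slc6a19), 3 at p under 0.01 and fold over 2 (18.5%, 3.39% and 6.39% of all genes), and 15 to 24 without 1 array. In KO AKI against WT AKI the count of 0 became 2 with array weights (Slc5a2 and Slc6a19, where 0.938% of all genes were called), 13 by limma at p under 0.01 and fold over 2 (3.1% of all genes; a threshold added after seeing the data, as were the values without single KO AKI arrays given in the text), and 0 to 17 without 1 array. For the interaction the count of 0 became 1 with array weights (Slc6a19, where 0.323% of all genes were called) and 0 to 5 without 1 array, and between the control groups it stayed 0 to 0. Leaving out 1 array moved the median member difference over -0.44 to -0.32, -1.69 to -0.66, -1.35 to -0.45, -0.03 to 0.10 and -1.31 to -0.33 for the comparisons WT AKI against WT control, KO AKI against KO control, KO AKI against WT AKI, KO control against WT control and the interaction. With the replicate block 3, 21, 0, 0 and 0 members were called in the same order of comparisons. Same-numbered arrays did not deviate together over all genes (18 correlations from -0.114 to 0.0878). With 3 arrays in a group these correlations cannot tell whether same-numbered mice shared a litter, cage or day, which the labels do not give. Over 81 single-gene results (differences over 1, or called with all arrays or under any alternative) and 1586 alternatives 4 reversed, 73 lost and 81 gained a call. The reversed values were in KO AKI against KO control. Slc13a1, at -0.36, was 0.66 with array weights and ran from -1.36 to 1.27 without 1 array, Slc13a3, at -0.91, from -1.68 to 0.11, and Slc5a1, at 0.32, from -0.27 to 1.08. Median centring split the called genes of WT AKI against WT control into 1097 up and 1731 down, quantile normalization into 1295 and 1260, against 1684 and 1042; for KO AKI against KO control they gave 2290 and 3178, and 2606 and 2787, against 2996 and 2449. Median centring moved the median of all genes from 0.06 to -0.09 in WT AKI against WT control. The cause of these differences was not tested. Signals near background limit Slc34a3 and Slc26a6.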
